A study of Mus musculus with 31 samples.

Results

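The cortex-rich and cortex-poor punches were the 8 punches of the caudate putamen (CPu) with the highest and the 8 with the lowest level of 3 genes of cortical glutamatergic neurons, out of 31 punches in the series. For each punch a cortical score was taken as the mean log2(TPM + 1) of Slc17a7, Neurod6 and Neurod2, where TPM is a transcript level scaled for gene length and to the same total in every library. The sets were thus chosen on measured values, and the 3 genes that chose them are not a result. The other 15 punches, called intermediate below, belonged to neither set.

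The study profiled RNA from the right CPu of female mice, 8 to 11 weeks old, on a C57BL/6NTac background. Wild type (WT) mice were compared with Brd1+/- mice, which carry 1 targeted allele of the chromatin adaptor gene Brd1 in every cell. Mice of both genotypes received either vehicle (saline) or the tricyclic antidepressant imipramine (IMN) at 10 mg/kg, and all went through behavioural tests shortly before they were killed. The table held 8 WT vehicle, 7 Brd1+/- vehicle, 8 WT IMN and 8 Brd1+/- IMN punches, each named here by its group and number.

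The CPu is the dorsal part of the striatum. Nearly all of its neurons are GABAergic medium spiny neurons, which receive dopamine from the midbrain and glutamate from the cortex, and which fall into a direct pathway class with the dopamine receptor Drd1 and an indirect pathway class with Drd2. The neocortex lies just above and beside it, separated by the white matter of the corpus callosum, and its projection neurons are glutamatergic and arranged in layers. A needle punch of the CPu can therefore hold tissue of both kinds, and in bulk RNA fewer cells of a type and less RNA per cell cannot be told apart.

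The cortex-rich set held 6 WT vehicle punches (numbers 1, 2, 3, 4, 5 and 7) and 2 WT IMN punches (5 and 8), and no Brd1+/- punch. The cortex-poor set held 2 WT vehicle punches (6 and 8), 2 WT IMN punches (4 and 7), 1 Brd1+/- vehicle punch (1) and 3 Brd1+/- IMN punches (1, 3 and 8). All 8 WT vehicle punches fell in one set or the other. Genotype, treatment and tissue cannot be told apart in a plain comparison of the sets, so the counts and the differences of the leading genes are also given within the WT vehicle group, 6 punches against 2.

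The cortical score was 7.36 ± 0.54 (SD, n = 8) in the cortex-rich set and 1.28 ± 0.38 (SD, n = 8) in the cortex-poor set. The intermediate punches ran from 2.23 to 5.6. Around the upper edge, WT IMN 8 at 6.30 was the last punch inside the set and Brd1+/- IMN 4 at 5.6 the first outside it. Around the lower edge, Brd1+/- IMN 3 at 2.00 was inside and WT IMN 3 at 2.23 outside.

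Slc17a7, the vesicular glutamate transporter of cortical neurons, was at 265 to 1412 TPM (median 932) in the cortex-rich set and at 2.57 to 13.4 TPM (median 5.01) in the cortex-poor set. Neurod6, a transcription factor of cortical and hippocampal projection neurons, was at 56.0 to 127 TPM against 0.165 to 1.5 TPM. Neurod2, a related factor, was at 31 to 108 TPM against 0.141 to 0.763 TPM. The intermediate punches filled the gap, with Slc17a7 between 19.9 and 286 TPM, the upper value just above the lowest cortex-rich punch.

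Labels were checked against marker genes first. All 31 punches are labelled CPu, but WT vehicle 2 nearly lacked the genes of medium spiny neurons. In that punch Drd2 stood at 0.748 TPM, Drd1 at 1.37 TPM and the adenosine receptor gene Adora2a at 1.02 TPM, whereas the other cortex-rich punches had at least 26.2 TPM of Adora2a. WT vehicle 7 is labelled female, yet its summed level of 4 Y-linked genes was 26.8 TPM, and no other punch exceeded 0.19 TPM. Xist, which is transcribed from an inactive X chromosome, was at 79.2 TPM in that punch and at 81.4 to 159 TPM in the others, so both kinds of transcript were present. Brd1 itself was at 19.5 to 26.9 TPM (median 23.1) in the cortex-rich set and at 11.3 to 22.1 TPM (median 16) in the cortex-poor set, 4 of whose punches were Brd1+/-.

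By group, Brd1 was at 22.5 ± 2.97 TPM (SD, n = 8) in WT vehicle, 19.9 ± 2.67 (SD, n = 8) in WT IMN, 13.4 ± 2.02 (SD, n = 7) in Brd1+/- vehicle and 12.8 ± 1.04 TPM (SD, n = 8) in Brd1+/- IMN punches. The WT and Brd1+/- ranges overlapped only between 14.6 and 16 TPM. In the intermediate punches Brd1 did not move with the score, with a slope of 0.03 per unit of score (limma adjusted p = 0.957).

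**Figure D1:**
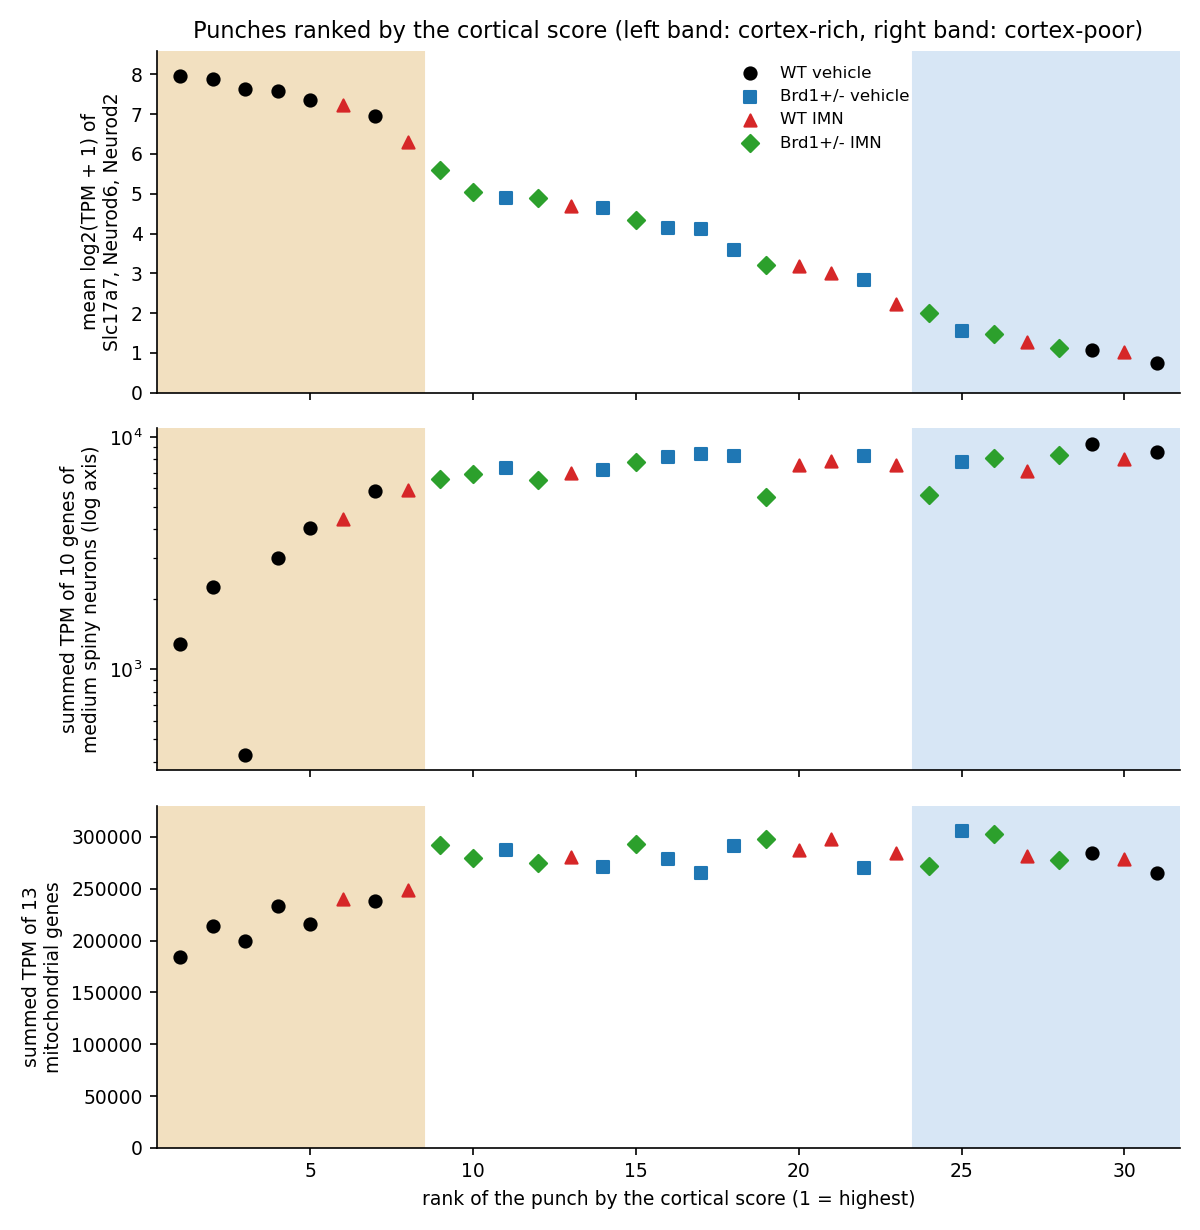
The 31 punches ranked by the cortical score (x axis, 1 is the highest), with the score (top, mean log2(TPM + 1)), the summed TPM of 10 genes of medium spiny neurons (middle, log axis) and the summed TPM of 13 mitochondrial protein genes (bottom); points are single punches, coloured by group, and the bands mark the 8 cortex-rich and 8 cortex-poor punches. The striatal sum was lowest in the left band, down to 428 TPM in WT vehicle 2, and all cortex-rich punches had less mitochondrial RNA than any cortex-poor punch.

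Of 23585 genes that passed a filter on low values, 731 (3.1%) were higher in the cortex-rich set and 61 (0.259%) lower, counting a gene where the 8 and 8 values did not overlap and the means of log2(TPM + 1) differed by at least 1. These counts describe the sets and carry no test, since the sets were chosen on cortical genes. Of these genes, 198 were higher and 3 lower by 2 or more on the log2 scale. Counting also genes whose values overlapped, 223 were higher and 10 lower by as much. Over all genes the median difference was 0.13, and 13650 genes (57.9%) differed by less than 0.25 in either direction. Scaling the libraries by the median of ratios to the all-punch reference moved the median difference to -0.01 and the counts to 540 higher and 128 lower, so the lower share of the counted genes went from 7.70% to 19.2%.

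The libraries themselves differed between the sets. The 10 most abundant genes took 19.2% to 25.1% of all TPM in the cortex-rich set and 26.8% to 30.4% in the cortex-poor set. The 13 mitochondrial protein genes summed to 184417 to 249078 TPM (median 224678) against 265389 to 305511 TPM (median 279965), without overlap. Each of the 13 was lower in the cortex-rich set, by 0.18 to 0.58 on the log2 scale. The values of 5 of them did not overlap, where 161 of all 23585 genes were lower without overlap. The intermediate punches, at 265604 to 298388 TPM, lay in the range of the cortex-poor set. Quantile scaling brought the median of these genes to 0.00. That scaling gives each rank the same value in every punch, so for genes this abundant the 0.00 follows largely from the method. The part of the mitochondrial difference in the other differences was not tested beyond the scalings named here.

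A comparison that shares no punch with the sets was available only in the 15 intermediate punches (6 Brd1+/- vehicle, 5 Brd1+/- IMN and 4 WT IMN). It uses the same 3-gene score, which also left these punches over, so it is not independent of the rule. Among these, the slope of log2(TPM + 1) per unit of cortical score was fitted for 23029 genes with the group as a covariate (limma). At a false discovery rate (FDR) of 5%, 53 genes (0.23%) rose with the score and 0 (0%) fell. At an unadjusted p below 0.01, 332 genes (1.44%) had rising and 118 (0.512%) falling slopes. The 53 slopes ran from 0.26 to 1.11 with a median of 0.49, where 1 would be the slope of a gene that moved in step with the 3 rule genes. The 3 rule genes themselves were left out. Leaving out WT IMN 1 gave 16 rising genes, and leaving out Brd1+/- IMN 4 or Brd1+/- IMN 6 gave 33 each. Of the 53 genes, 14 passed in every fit with 1 punch left out, Tbr1, Nptx1, Vxn and Olfm1 among them, whereas Cck, Fezf2 and Zfpm2 reached adjusted p-values of 0.102, 0.131 and 0.150. A score of striatal genes, its sign reversed so that it rises as they fall, was also tried in place of the cortical score. With it 0 genes rose or fell, and Tbr1 and Nptx1 did not pass (adjusted p = 0.695 and 0.743).

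The extremes and the intermediate punches shared no punch, so their values can be set side by side, although both rest on the same score. All 53 rising genes had a positive difference between the sets, and 51 of them were among the 731 higher genes. Of 720 higher genes that were also fitted in the intermediate punches, 660 (91.7%) had a positive slope and 188 had one at an unadjusted p below 0.01, while 0 had a falling slope at that level. Of the 61 lower genes, 7 (11.5%) had a positive slope and 6 a falling slope at that level. Over all genes with both values, 52.7% of slopes were positive, and across these genes, which are not independent replicates, the difference and the slope correlated with r = 0.40.

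**Figure D2:**
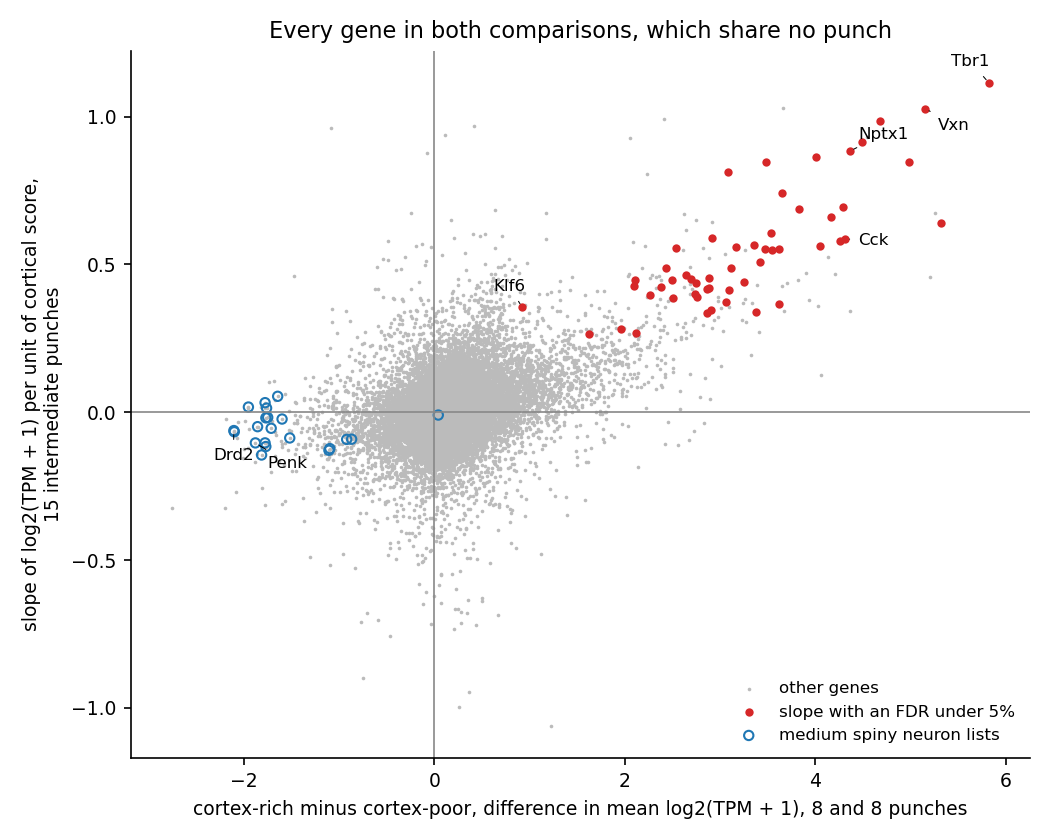
Difference between the sets (x axis, cortex-rich minus cortex-poor mean log2(TPM + 1), 8 and 8 punches) against the slope per unit of cortical score in the 15 intermediate punches (y axis, log2(TPM + 1) per unit); each point is a gene, red points are the 53 genes with an FDR below 5% and blue circles are genes of medium spiny neurons. The red points lie at the upper right, with Tbr1 at a difference of 5.82 and a slope of 1.11, whereas the medium spiny genes lie near a slope of 0.

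Beyond the rule genes, Tbr1 had the largest positive difference of all genes. Tbr1, a T-box transcription factor of deep-layer neurons, was at 41.4 to 158 TPM (median 77.8) in the cortex-rich set, 0.986 to 24.3 TPM (median 6.30) in the intermediate punches and 0.0671 to 0.979 TPM (median 0.321) in the cortex-poor set. The 3 ranges followed each other without overlap. The log2 difference was 5.82 between the sets and 6.24 within the WT vehicle punches. In the intermediate punches Tbr1 rose by 1.11 ± 0.058 (SE) per unit of score (adjusted p = 1.7e-07).

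Nptx1, a secreted pentraxin of excitatory synapses, was at 90.6 to 434 TPM (median 211), 10.3 to 86.6 TPM (median 25.3) and 6.4 to 17.7 TPM (median 8.30) in the same order. Its difference was 4.36 (4.48 within WT vehicle punches) and its slope 0.88 ± 0.046 (SE, adjusted p = 1.7e-07). The lowest cortex-rich value was that of WT vehicle 2, and the next punch of that set had 136 TPM.

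Cck, the neuropeptide cholecystokinin, was at 269 to 549 TPM (median 346) in the cortex-rich set and 13.1 to 19.1 TPM (median 17.3) in the cortex-poor set. Its range in the intermediate punches, 19.5 to 106 TPM (median 53.7), fitted between the sets, and its slope was 0.59 (adjusted p = 0.014). Vxn was at 162 to 519 TPM against 4.46 to 10.8 TPM, a difference of 5.16 (5.59 within WT vehicle punches), and had the third-smallest adjusted p among the slopes (slope 1.03, adjusted p = 5.16e-06).

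Of the 12 named genes with the largest positive difference (no overlap, a mean of at least 1 TPM and a symbol other than a Gm, Rik or clone name), 8 rose in the intermediate punches. They were Tbr1, Rtn4rl2, Vxn, Trbc2, Prss12, Nptx1, Cck and Ccn3, with adjusted p-values up to 0.0441 (Rtn4rl2, up to 0.266 with 1 punch left out). Slc30a3, the zinc transporter of glutamatergic vesicles, did not pass the test (slope 0.46, adjusted p = 0.564), although it was at 23.9 to 140.1 TPM against 0 to 0.776 TPM between the sets. Nrn1, a neurotrophic surface protein, was at 28.9 to 358 TPM against 0.70 to 2.41 TPM with a slope of 0.67 (adjusted p = 0.097). Nr4a2, a nuclear receptor of claustral and deep-layer neurons, was at 20.6 to 58.1 TPM against 0.288 to 2.06 TPM with a slope of 0.93 (adjusted p = 0.103). Dkkl1 was at 14.8 to 65.8 TPM against 0 to 0.919 TPM with a slope of 0.34 (adjusted p = 0.468).

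Trbc2, a constant segment of the T cell receptor beta chain, stood apart from the others in kind. It was at 16.6 to 48.6 TPM (median 19.9) in the cortex-rich set and listed at 0 in 7 of the 8 cortex-poor punches, the other being Brd1+/- vehicle 1 at 0.185 TPM. Its slope was 0.99 (adjusted p = 0.00539).

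**Figure D3:**
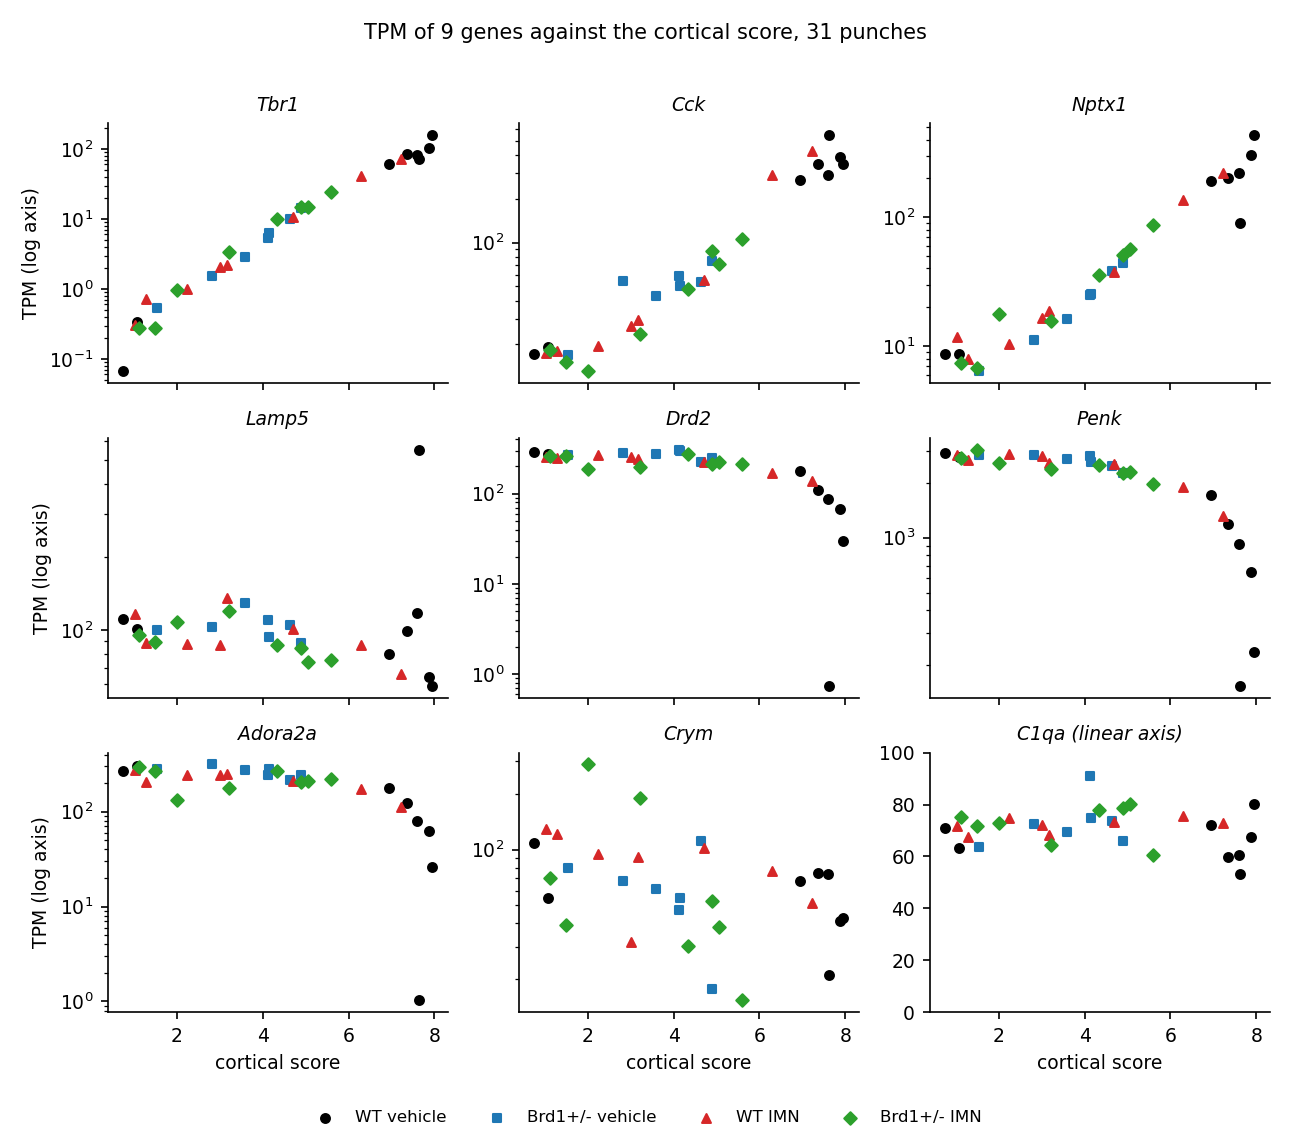
TPM of 9 genes (y axes, log scale except for C1qa) against the cortical score (x axes) in 31 punches; symbols mark the 4 groups. Tbr1 climbs over the whole range of the score, Drd2, Penk and Adora2a are lower mainly at the highest scores, and WT vehicle 2 was the highest for Lamp5 (552 TPM) and the lowest for Drd2 (0.748 TPM).

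Upstream sequence was available for 18 of the 27 genes that are the 3 rule genes and the 12 named by the same rule in each direction (RefSeq, GRCm38.p6, 250 bases before to 50 after the start that RefSeq gives, which for some genes, such as Tbr1, is not the start in the annotation of the files). It was searched on both strands for CAGATG, or its reverse complement CATCTG, a form of the E-box CANNTG that NeuroD factors bind. The proximal sequences of rule gene Neurod2, of Cck and Dkkl1, which hold that E-box, and of Tbr1 and Drd2, which do not, are printed 5′ to 3′ on the strand of the gene, with the motif in capitals. Neurod2 is at chr11:98329596-98329895 (minus strand), Cck at chr9:121495645-121495944 (minus), Dkkl1 at chr7:45211834-45212133 (minus), Tbr1 at chr2:61804203-61804502 (plus) and Drd2 at chr9:49340153-49340452 (plus).
Neurod2: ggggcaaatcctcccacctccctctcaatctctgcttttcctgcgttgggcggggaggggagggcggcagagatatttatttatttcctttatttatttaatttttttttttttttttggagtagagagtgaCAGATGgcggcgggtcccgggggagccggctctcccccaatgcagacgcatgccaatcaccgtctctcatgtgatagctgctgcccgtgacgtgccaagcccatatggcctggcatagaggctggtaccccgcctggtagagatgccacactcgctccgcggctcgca
Cck: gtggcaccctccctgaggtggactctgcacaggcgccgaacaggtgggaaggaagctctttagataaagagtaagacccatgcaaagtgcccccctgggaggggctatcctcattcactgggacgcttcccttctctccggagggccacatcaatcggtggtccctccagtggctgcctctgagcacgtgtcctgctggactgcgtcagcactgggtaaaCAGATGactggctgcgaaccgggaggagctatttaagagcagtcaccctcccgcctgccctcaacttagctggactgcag
Dkkl1: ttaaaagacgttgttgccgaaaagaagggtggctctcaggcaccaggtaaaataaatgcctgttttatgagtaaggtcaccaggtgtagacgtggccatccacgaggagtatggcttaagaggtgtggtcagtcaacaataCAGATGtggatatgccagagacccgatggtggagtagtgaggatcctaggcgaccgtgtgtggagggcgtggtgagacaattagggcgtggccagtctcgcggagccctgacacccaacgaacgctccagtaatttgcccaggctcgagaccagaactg
Tbr1: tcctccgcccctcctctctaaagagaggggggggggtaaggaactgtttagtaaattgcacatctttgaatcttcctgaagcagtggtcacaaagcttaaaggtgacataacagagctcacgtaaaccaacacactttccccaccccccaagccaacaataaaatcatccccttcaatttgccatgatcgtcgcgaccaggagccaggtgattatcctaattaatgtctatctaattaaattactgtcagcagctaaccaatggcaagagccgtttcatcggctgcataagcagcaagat
Drd2: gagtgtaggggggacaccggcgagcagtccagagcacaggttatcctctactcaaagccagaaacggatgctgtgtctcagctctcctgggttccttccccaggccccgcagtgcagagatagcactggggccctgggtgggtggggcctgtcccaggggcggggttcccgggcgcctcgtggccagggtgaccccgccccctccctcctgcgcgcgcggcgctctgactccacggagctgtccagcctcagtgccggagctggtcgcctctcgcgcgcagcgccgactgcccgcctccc

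CAGATG was found in 1 of 3 rule genes, in 2 of 7 matched genes with the largest positive difference and in 0 of 8 with the largest negative one. Of all 26742 upstream sequences of this length, 4615 (17.3%) held it and 72.3% held any CANNTG, which includes CAGATG. The wider motif was in 3 of 3, 4 of 7 and 5 of 8 of the same groups of genes. These are matches of letters in a short window and were not compared by a test.

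The 53 rising genes held several transcription factors of cortical projection neurons. Besides Tbr1 these included Fezf2, which marks subcortical projection neurons (slope 0.61, adjusted p = 0.0129), and Zfpm2 (slope 0.39, adjusted p = 0.0232). Klf6, a zinc finger factor found in many tissues, rose as well (slope 0.35, adjusted p = 0.00793), and its difference between the sets, 0.92, stayed under the fold used here.

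Several genes for receptors and ion channels, picked from the 53 after their values were seen, are named next, and such genes were not counted as a group. Chrna4, a subunit of nicotinic receptors, had a slope of 0.43 (adjusted p = 0.00725), and Gabra3, a subunit of GABA-A receptors, one of 0.27 (adjusted p = 0.00784). The adrenergic receptor genes Adra1b and Adra2a had slopes of 0.44 and 0.49 (adjusted p = 0.041 for each), and with 1 punch left out their adjusted p reached 0.258 and 0.245. Ntsr1, a neurotensin receptor of layer 6 neurons, had a slope of 0.43 (adjusted p = 0.0119), and the potassium channel gene Kcnc4 one of 0.51 (adjusted p = 0.00539). With 1 punch left out the adjusted p of Chrna4, Gabra3, Ntsr1 and Kcnc4 reached 0.066, 0.073, 0.084 and 0.056.

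Olfm1 and Vsnl1 were picked from the 53 in the same way. Olfm1, a secreted glycoprotein of neurons, was at 422 to 1050.2 TPM (median 757) in the cortex-rich set and 96.3 to 111 TPM (median 105) in the cortex-poor set (slope 0.39, adjusted p = 0.00517). Vsnl1, a neuronal calcium sensor, was at 273 to 1281 TPM against 43.8 to 81.3 TPM (slope 0.34, adjusted p = 0.0331, up to 0.191 with 1 punch left out). Both were thus present in all punches, with several-fold more in the cortex-rich set.

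Among marker lists, all 9 other genes of cortical glutamatergic neurons were past the fold on the higher side, where 3.1% of all genes were. Their median difference was 4.17, against 0.13 over all genes. Tbr1, Nrn1 and Slc30a3 had the largest differences, and Sv2b, a synaptic vesicle protein, had the smallest difference at 1.48. Their summed level was 439 to 1079 TPM (median 762) against 66.8 to 100.4 TPM (median 82.2). In the intermediate punches 3 of the 9 rose, Tbr1 and Nptx1 among them, where 0.23% of all fitted genes rose. Emx1, a homeobox factor of the cortical lineage, was at 3.80 to 23.2 TPM against 0 to 0.217 TPM.

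Genes of the cortical layers were listed separately, and the lists were not compared by a test. Of 8 genes of layers 6 and 6b, 4 were past the fold (3.1% of all genes were on the higher side), with Cplx3 at a difference of 3.66, Nxph3 at 3.48, Rprm at 3.36 and Ctgf at 2.63, and the median of the list was 2.24. Of 8 genes of layer 5, Fezf2 (3.53) and Npr3 (1.48) were past the fold, and the median was 0.48. Of 9 genes of layers 2 to 4, Rasgrf2 (2.43) was past the fold, and the median was 0.11. Without WT vehicle 2 the medians of these lists were 2.51, 0.40 and -0.11 in the same order. Several genes of the last list have a level of their own in striatal punches, as Lamp5 was at 88.1 to 117 TPM (median 101) in the cortex-poor set and 59.0 to 552 TPM (median 83.2) in the cortex-rich set. In the intermediate punches Rprm, Nxph3 and Fezf2 rose (slopes of 0.57, 0.85 and 0.61), and no gene of layers 2 to 4 did.

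Of 6 genes of interneurons found mostly in the cortex, Cck, Vip (difference 4.03) and Crh (1.70) were past the fold on the higher side, against 3.1% of all genes. Cck also rose with the score of glutamatergic genes in the intermediate punches (slope 0.59, limma adjusted p = 0.014). It is therefore not read here as a measure of interneurons alone. Vip was at 7.10 to 66.4 TPM against 0 to 1.41 TPM. Reln was lower, at 6.92 to 45.0 TPM against 44.8 to 146 TPM, with a small overlap and a difference of -1.58. Among 6 genes of interneurons that both tissues hold, 0 were past the fold. Pvalb had the largest difference, 2.16, but overlapped, with 18.1 to 284 TPM against 1.88 to 18.1 TPM. Sst was at 548 to 802 TPM against 364 to 479.5 TPM (difference 0.60) and Npy at 294 to 411 TPM against 178 to 227 TPM, both without overlap, while Nos1, found in the same striatal interneurons, was at 2.72 to 18.5 TPM against 15.2 to 19.9 TPM.

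Of 10 genes of neurons in general, 5 were past the fold on the higher side, where 3.1% of all genes were. They were Stmn2 (1.90), Syp (1.44), Snap25 (1.12), Nefl (1.06) and Syt1 (1.01), and the summed level of the 10 was 4318 to 7903 TPM against 2885 to 3343 TPM. Snap25, a protein of synaptic vesicle fusion, was at 1758 to 3674 TPM against 968 to 1295 TPM. Of these 10 genes, 0 rose at an FDR of 5% in the intermediate punches, where Stmn2 had the slope with the smallest p (0.18, adjusted p = 0.24).

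**Figure D4:**
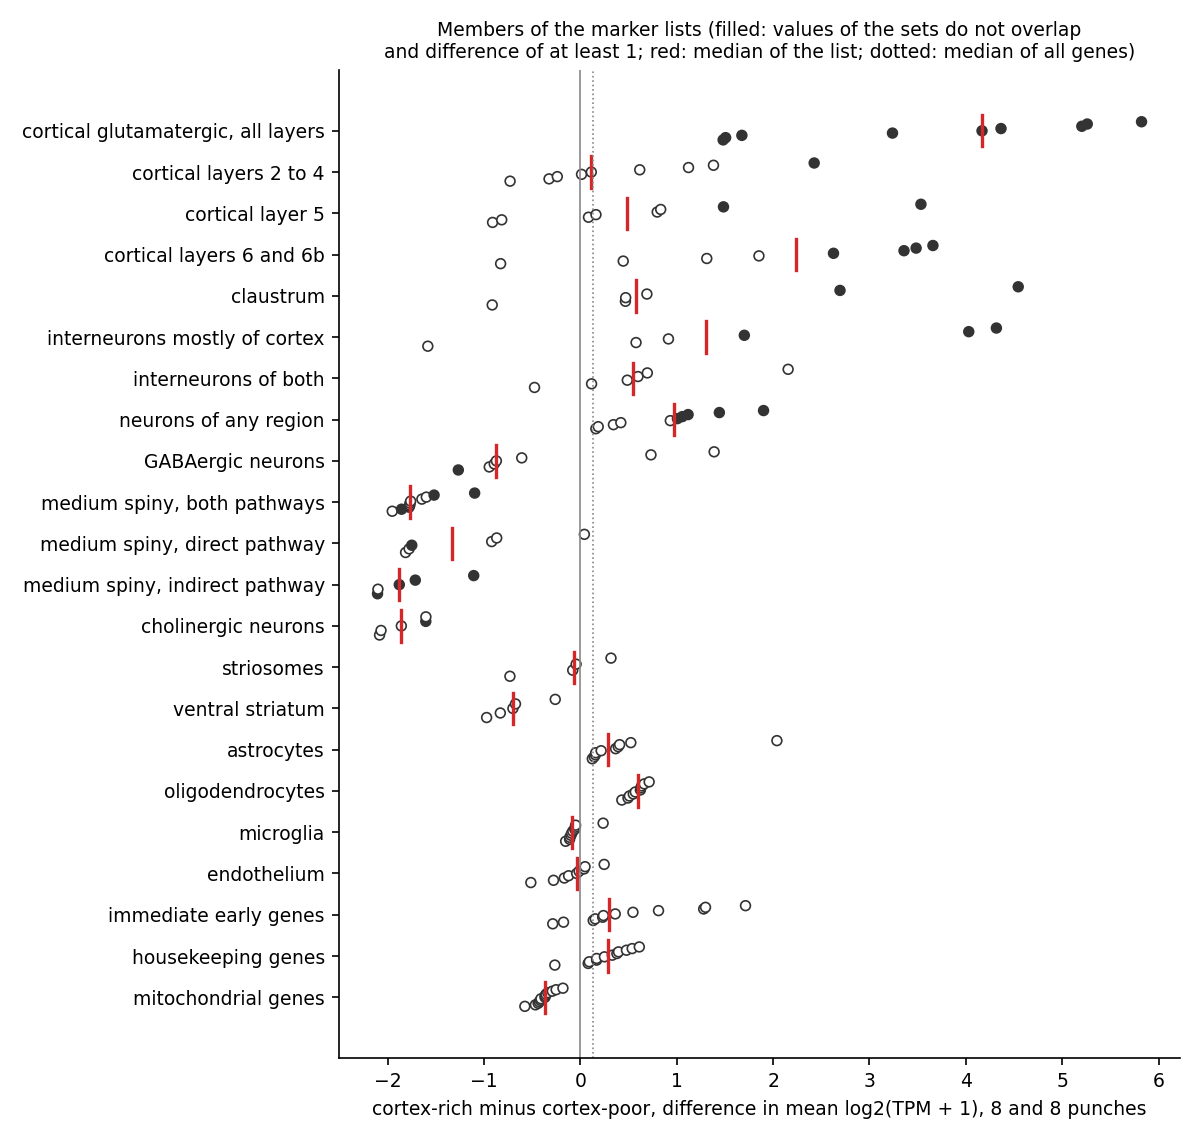
Difference between the sets (x axis, cortex-rich minus cortex-poor mean log2(TPM + 1), 8 and 8 punches) for each member of 22 marker lists (y axis); filled points are past the fold, red bars are list medians and the dotted line is the median of all genes, 0.13. The list of cortical glutamatergic genes extends to 5.82 on the right, the medians of the 3 medium spiny lists are -1.88, -1.76 and -1.33, and microglia and endothelium sit near the dotted line.

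On the striatal side, 9 of 21 measured genes of medium spiny neurons were past the fold on the lower side and 0 on the higher side, where 0.259% of all genes were past it on the lower side. The indirect pathway list had 4 of 5, the list shared by both pathways 4 of 10 and the direct pathway list 1 of 6. Their medians were -1.88, -1.76 and -1.33, and -1.38, -1.29 and -0.95 without WT vehicle 2. Of the 4 genes of striosomes (median -0.06) and the 5 measured genes of the ventral striatum (median -0.70), 0 were past the fold. Of 7 genes of GABAergic neurons in general, Dlx6 (-1.27) was past it, and the median was -0.87. The ranges in the cortex-rich set were wide, and WT vehicle 2 had the lowest value of Drd2, Penk, Drd1 and Adora2a.

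Drd2 was at 0.748 to 176 TPM (median 99.0) in the cortex-rich set and 186 to 287 TPM (median 261) in the cortex-poor set. The sets did not overlap, and the cortex-rich mean was 38.1% of the cortex-poor mean. Penk, the enkephalin precursor of the indirect pathway, was at 154 to 1911 TPM (median 1053) against 2565 to 3046 TPM (median 2814), with a cortex-rich mean of 36.1%. Drd1 was at 1.37 to 145 TPM (median 88.8) against 159 to 200.4 TPM (median 176), with a mean of 45.6%. The log2 differences were -2.10, -1.88 and -1.75, and within WT vehicle punches they were -2.71, -2.25 and -2.17. Without WT vehicle 2 they were -1.38, -1.55 and -1.11.

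Adora2a, a receptor of the indirect pathway, had the same difference as Drd2 (-2.10) but overlapped, with 1.02 to 178 TPM against 134 to 302 TPM. The 134 TPM was that of Brd1+/- IMN 3. Tac1, the substance P precursor of the direct pathway, was at 6.16 to 489.5 TPM against 436 to 582 TPM, and Ppp1r1b, which encodes DARPP-32, at 73.8 to 2494 TPM against 2309.6 to 4023 TPM. Rarb, a retinoic acid receptor, was at 1.37 to 64.4 TPM against 75.4 to 106 TPM, and Gng7, the G protein gamma subunit of these neurons, at 35.4 to 609.8 TPM against 649 to 929 TPM.

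Among genes whose values did not overlap, the largest negative difference was that of Crabp1, a retinoic acid binding protein, at 0 to 11.1 TPM (median 4.20) against 13.6 to 21.6 TPM (median 18.8), a difference of -2.20 (-2.46 within WT vehicle punches). Ptprv (-2.0), Serpina9 (-1.99) and Slc10a4 (-1.96) followed Drd2 among these genes. Slc10a4, a transporter of cholinergic and monoaminergic vesicles, was at 0 to 11.6 TPM against 14.5 to 19.6 TPM.

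Of 5 genes of cholinergic interneurons, the large acetylcholine neurons of the striatum, 1 was past the fold on the lower side, where 0.259% of all genes were. This was Slc18a3, the vesicular acetylcholine transporter (0.345 to 5.78 TPM against 6.25 to 10.3 TPM), and the 5 genes of the list had a median of -1.86. Chat, which makes acetylcholine, overlapped slightly at 0 to 11.3 TPM against 10.6 to 21.5 TPM. The summed level of the list was 18.1 TPM in the median cortex-rich punch and 59.1 TPM in the median cortex-poor punch.

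The striatal genes did not pass the test in the intermediate punches. The slope was -0.06 for Drd2 (adjusted p = 0.844), -0.10 for Penk (adjusted p = 0.473), -0.02 for Drd1 (adjusted p = 0.953) and -0.32 for Crabp1 (adjusted p = 0.607). The unadjusted p for Penk was 0.0084. Of 10 shared genes of medium spiny neurons, 7 had a negative slope, and the median slope was -0.04. A positive slope was seen in 1 of 6 direct and 0 of 5 indirect pathway genes. At an unadjusted p below 0.01, 1 of the 10 shared, 0 of the 6 direct and 1 of the 5 indirect pathway genes fell, where 0.512% of all genes did. Their summed level was 428 to 5899 TPM (median 3540) in the cortex-rich set, 5512 to 8414 TPM (median 7555) in the intermediate punches and 5638 to 9328 TPM (median 8072) in the cortex-poor set. In levels, then, the intermediate punches overlapped the cortex-poor punches for striatal genes and lay apart from them for Tbr1.

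The cortex-rich punches differed among themselves. WT vehicle 2 had the highest level of 7 of the 9 genes of layers 2 to 4, the others being Rorb and Otof. Lamp5 was at 552 TPM there against 59.0 to 118 TPM in the other 7, and made up most of a sum of 781 TPM, where the median of the set was 162 TPM. Its layer 5 sum, 198 TPM, was the highest of the set, with Fezf2 at 78.3 TPM. The same punch had the lowest level of all 8 genes of layers 6 and 6b, with Rprm at 12.9 TPM, Cplx3 at 5.50 TPM and a sum of 68.8 TPM. Slc17a6, a glutamate transporter found mostly outside the neocortex, was at 32.1 TPM there and at 1.00 to 4.41 TPM in the other 7.

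WT vehicle 1 lay at the other end. It had the highest Ctgf, a gene of layer 6b (165 TPM), the highest Cplx3 (82.9 TPM), Nxph3 (134 TPM) and Rprm (136 TPM), and a layer 6 sum of 727 TPM against a median of 250.5 TPM. It also had the most myelin RNA, with a sum over 10 oligodendrocyte genes of 10069 TPM, and the highest Gfap, at 160.5 TPM. Chat was at 0 in this punch, and its upper-layer sum of 122 TPM was the lowest of the set. The least reduced striatal levels in the set were those of WT vehicle 3 and WT IMN 8, with Adora2a at 178 and 175 TPM.

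Without WT vehicle 2, 739 genes were higher and 45 lower, of which 672 and 45 were in the original counts. Without WT vehicle 7, the punch with Y-linked transcripts, the counts were 728 and 65. Within the WT vehicle group, 6 cortex-rich against 2 cortex-poor punches, 1232 genes were higher and 287 lower by the same limits on overlap and difference. Of the 731 and the 61, 663 and 57 kept their place. Among all WT punches, 8 against 4, the counts were 850 and 153, and 698 and 58 kept it. With fewer punches, values avoid overlap more easily, and the filter still asked for 7 punches above the floor. The counts within WT punches can therefore not be read as a stronger contrast than 731 and 61.

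The cortex-poor set was more even, apart from Brd1+/- IMN 3. That punch had Crym, a thyroid hormone binding protein, at 288 TPM against 39.1 to 129 TPM in the other 7, Wfs1 at 156 TPM, the dynorphin precursor Pdyn at 239 TPM, and the lowest sum of medium spiny genes in the set, 5638 TPM. A list of genes enriched in the ventral striatum summed to 620 TPM in it and to 115 to 276 TPM in the others. Among intermediate punches, Brd1+/- IMN 6 had a similar profile, with Crym at 189 TPM, Pdyn at 138 TPM and a ventral sum of 442 TPM. Leaving out Brd1+/- IMN 3 raised the count of lower genes from 61 to 124, and leaving out the cortex-rich punch WT IMN 8 raised it to 107.

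Lists of immune, vascular and blood cells held 0 members past the fold, which is near the share of all genes (3.1% higher and 0.259% lower). The differences of 10 microglial genes ran from -0.15 to 0.24 with a median of -0.08, and the sum of these genes was 300 to 484 TPM (median 429) against 379 to 482 TPM (median 445). C1qa, a complement gene of microglia, was at 53.4 to 80.0 TPM in the cortex-rich and 63.1 to 75.1 TPM in the cortex-poor set. The medians of 9 endothelial genes (-0.04), 6 mural genes (-0.08), 6 meningeal genes (0.02) and 5 erythrocyte genes (0.11) lay between -0.08 and 0.11, where the median of all genes was 0.13.

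Glial lists held no member past the fold, where 3.1% of all genes were past it on the higher side and 0.259% on the lower. The 10 oligodendrocyte genes had a median difference of 0.60, with 0 past the fold, and summed to 1507 to 10069 TPM against 1779 to 3914 TPM, so that some cortex-rich punches lay below some cortex-poor ones. All 10 had positive slopes in the intermediate punches (median 0.41), none at an FDR of 5%. Of 6 genes of oligodendrocyte precursors, 0 were past the fold (median 0.20). Of 10 astrocyte genes, Gfap had a difference of 2.04, with 18.1 to 160.5 TPM against 4.71 to 33.3 TPM, and the median of the list was 0.29. Slc1a2 and Slc1a3, the glutamate transporters of astrocytes, differed by 0.16 and 0.12.

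Genes that respond to activity or stress were looked at because the mice had been injected and tested before tissue was taken. Of 12 immediate early genes, 0 were past the fold, which is near the share of all genes (3.1% higher and 0.259% lower). Their median difference was 0.30. Fos was at 9.51 to 63.7 TPM (median 21.9) against 2.66 to 14 TPM (median 6.08), an overlap with a difference of 1.71, while Arc had 1.3, Ier2 1.28 and Egr1 0.36. In the intermediate punches all 12 slopes were positive, between 0.01 and 0.14, and none passed. Of 8 glucocorticoid-responsive genes, 0 were past the fold, also near the share of all genes, with Zbtb16 at a difference of 1.31 and Fkbp5 at -0.35.

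Housekeeping genes (12, median 0.29) and 77 cytosolic ribosomal protein genes (median 0.13) held 0 members past the fold. Markers of other regions were counted in the same way, against 3.1% of all genes on the higher side. Of 6 genes of the claustrum, a thin sheet of cells between cortex and striatum, Nr4a2 (4.54) and Ntng2 (2.69) were past the fold. Of 6 thalamic genes, Ramp3 (1.91) and Slc17a6 (1.82, with 32.1 TPM in WT vehicle 2 and at most 4.41 TPM in any other punch) were past the fold, of 5 hippocampal genes Neurod1 (1.55), and none of the 3 choroid plexus, 3 ependymal, 3 hypothalamic and 2 olfactory bulb genes that passed the filter.

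Genes that vary between punches without following the score were picked by their spread. Among 13389 genes with a mean of at least 1 TPM, 6398 differed by less than 0.25 between the sets, and the 12 of these with the largest SD over the 31 punches are described here. Their SD was 1.02 or more on the log2 scale, against a median SD of 0.27. In several of them the values fell into a low and a high range with few punches between.

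Rab43, a small GTPase of the Golgi, was at 10.2 to 15.4 TPM in 19 punches and at 0.0977 to 2.12 TPM in the other 12. The gene model Gm45140 lies on the same strand and shares 4164 exon bases with it. Gm45140 was at 0.064 to 0.32 TPM where Rab43 was high and at 8.94 to 10.9 TPM where Rab43 was low, and the sum of both was 9.03 to 15.5 TPM. The medians of the sum were 11.6, 11.5 and 11.8 TPM in cortex-rich, intermediate and cortex-poor punches.

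Pcdhgb1, a clustered gamma protocadherin, was at 32.5 to 158 TPM in 5 punches and 1.03 to 7.38 TPM in 26. Its exons overlap those of 25 other gene models, and it shares 2116 bases with most of the gamma cluster. The sum over 22 members of the cluster was 95.7 to 338 TPM, with medians of 225, 215 and 203 TPM in cortex-rich, intermediate and cortex-poor punches. For Rab43 and Pcdhgb1 the values of a single gene model are therefore uncertain.

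Mia3, a protein of collagen export, was at 52.4 to 107 TPM in 13 punches (3 cortex-rich, 7 intermediate and 3 cortex-poor) and at 6.57 to 15.5 TPM in the other 18. Lmbrd2 was at 5.93 to 14.1 TPM in 19 punches (4, 10 and 5 in the same order) and at 0 in 12. Jakmip3 was at 7.68 to 10.7 TPM in 26 punches and at 0 in 5, Trex1 at 2.53 to 10.7 TPM in 26 and at 0 in 5, and Gadl1 at 4.15 to 7.65 TPM in 25 and 0.0702 to 0.32 TPM in 6. A value listed at 0 here may be a failed estimate. The other members were Mid1-ps1 on the Y chromosome, the small RNA genes Rn7s1 and Rn7s2, which were both near 88 TPM in Brd1+/- vehicle 4 alone, Snord35b and Mir5133.

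**Figure D5:**
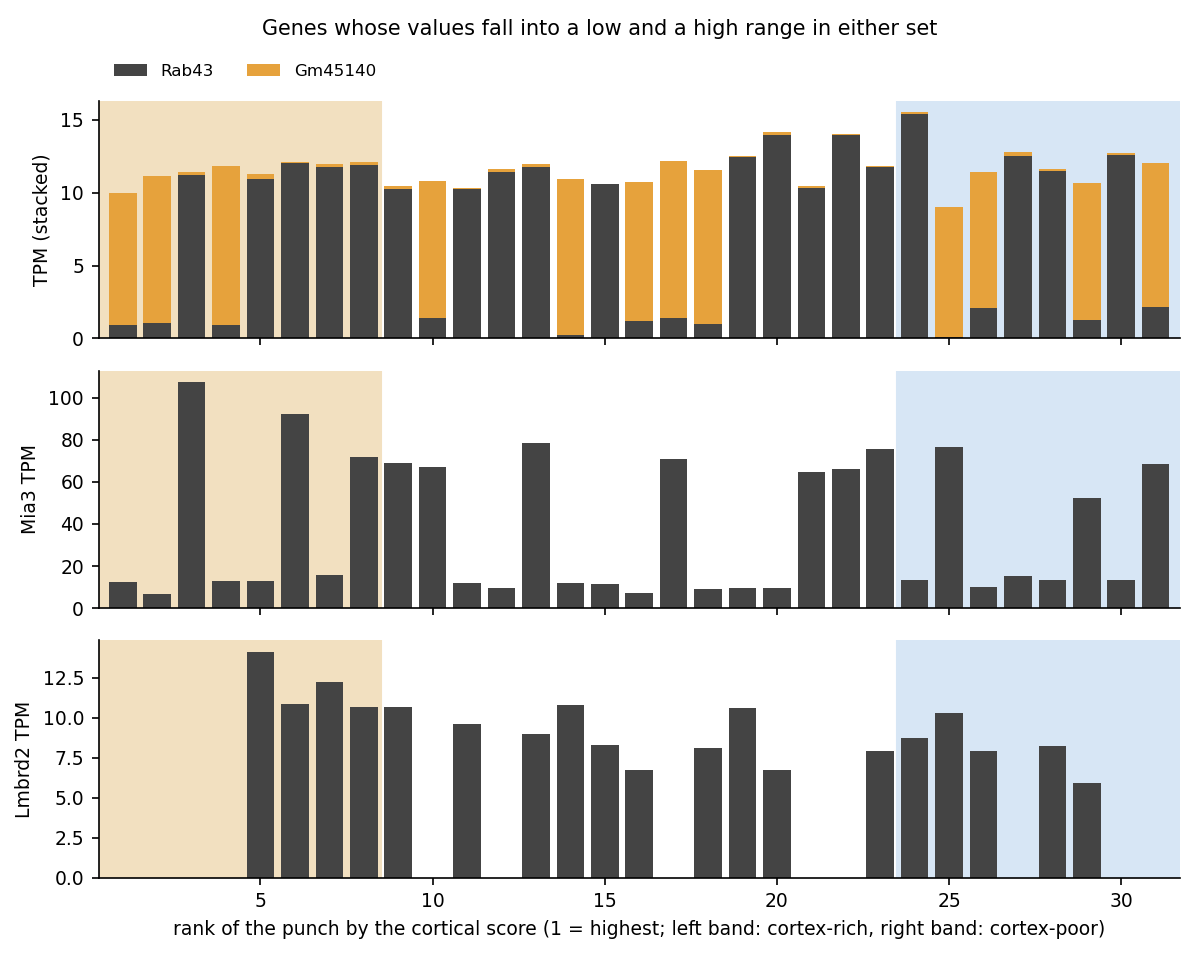
TPM (y axes, bars from 0) of Rab43 stacked with the overlapping gene model Gm45140 (top), of Mia3 (middle) and of Lmbrd2 (bottom) in the 31 punches ranked by the cortical score (x axis), with bands for the cortex-rich (left) and cortex-poor (right) punches. Each gene switches between a low and a high range in all parts of the ranking, and the Rab43 and Gm45140 bars add up to 9.03 to 15.5 TPM.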

How the data were processed

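RNA from 31 CPu punches had been sequenced as single-end reads. Before deposition, the authors ran HISAT2 (2.1.0) on the GRCm38 build and StringTie (1.3.4), which gave the deposited TPM per gene, per the labels and the methods. Trimming and read checks used Trimmomatic and FastQC. TPM summed to 999787 to 999918 per punch over 52636 genes, of which 52403 were paired with a symbol. The depth of each punch is not in the files used here, which hold no counts, so no counting interval was given and no count test was used. All sample columns were mapped, with 0 unused, and 0 pairs of columns were identical.

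Levels were compared as log2(TPM + 1), with Python (3.11.15, pandas 2.3.3, numpy 2.4.6), for genes exceeding 0.1 TPM in 7 or more of the 16 punches in the sets. Differences on this scale understate those of low genes. The contrast of the sets carries no test. Slopes in the 15 intermediate punches were fitted with limma (3.58.1, R 4.3.3) with a mean-variance trend, the genotype and treatment group as a covariate and Benjamini-Hochberg adjusted two-sided p-values over 23029 genes. In simulated data the fit recovered 73 of 200 genes with a slope of 0.25 and 165 of 200 with a slope of 0.5, with 6 and 10 false calls. The labels do not say whether mice shared an extraction day, so p-values measure only the spread between these punches.

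Named genes were the rule genes, the 4 most abundant members of each of 36 marker lists, the 12 largest differences in each direction with a mean of at least 1 TPM, no overlap and a symbol other than a Gm, Rik or clone name, the 12 non-following genes with the largest SD, and Brd1. Other genes in the text were named after their values were seen. The members and lists were chosen with earlier results of these data known. The alternatives tried were a pseudocount of 0.1, other filters, scalings, set sizes, scores and covariates, WT punches only, and leaving out each punch.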

Additional observations from a re-analysis of the deposited data

Results flagged for a closer look

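Of 24 tests of a group for 1 far sample, 2 stood out, and chance gives about 1 in 20. WT vehicle 7 had a summed level of 4 Y-linked genes of 26.8 TPM, while the next WT vehicle punch had 0.188 TPM and all mice are labelled female. Xist was at 79.2 TPM in WT vehicle 7. The same Y-linked sum in Brd1+/- vehicle 1 was 0.171 TPM, with 0.0735 TPM as the next value in its group, and both lie at the level seen in the other punches. The cause was not tested.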

How the results depend on the processing

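The counts of genes past the fold depended on how the sets were cut and scaled. With 10 against 10 punches 275 genes were higher and 26 lower, and with 6 against 6 there were 990 and 291. Lower genes numbered 128 after median-of-ratios scaling and 144 after quantile normalization, 153 in WT punches only and 287 in WT vehicle punches only, where 1232 were higher. Smaller sets make it easier for values not to overlap, so their counts are not like for like. Lower genes regardless of overlap went from 223 to 142 with group means removed. Leaving out 1 punch gave 699 to 837 higher genes and 45 (without WT vehicle 2) to 124 lower genes (without Brd1+/- IMN 3), with 107 without WT IMN 8. The rising slopes numbered 127 without the group covariate (4 falling), 4854 in all 31 punches (1030 falling), where the punches of the sets take part, and 0 against a score of striatal genes. That score was taken with its sign reversed, so that it rises as striatal genes fall. Against it the slopes of Necab3, Slc30a3 and Rtn4rl2 were -0.11, -1.29 and -0.29. A negative slope here means a higher level where striatal genes were higher. The falling count was 1 in place of 0 with a pseudocount of 0.1, a mean of at least 1 TPM, no filter, quantile normalization, the score of 9 cortical markers and array quality weights. Leaving out 1 punch gave 16 (without WT IMN 1) to 55 rising genes, with 33 without Brd1+/- IMN 4 or Brd1+/- IMN 6, and 0 to 3 falling genes. Tbr1 and Nptx1 passed in all of these leave-one-out fits, with adjusted p-values of at most 8.3e-06. Of the named genes' slopes under all alternatives, 1281 kept their direction and side of the threshold and 243 no longer passed. The cause was not tested in any of these.

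With the replicate number as a replicate block, 54 genes rose and 1 fell. The labels do not say what a number shares across groups, and same-numbered punches of different groups correlated with a median r of 0.04 over 10 pairs, with the lowest at -0.06. The files used here give no depth per punch, and genes listed at 0 cannot be told from failed estimates.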
